A study of Mus musculus with 24 samples.

Results

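The effect of environmental enrichment was examined among the 10 hippocampal libraries that carried more choroid plexus RNA than the others. They were 10 of 24 libraries in all, chosen by the level of Ttr, the transthyretin gene: each had at least 300 CPM of Ttr (counts per 1000000 counts on genes, library by library), after libraries 33B and 34B had been set aside. Of the 10, 7 came from enriched mice (EE) and 3 from mice in standard housing (SH). By genotype, the enriched libraries were MSK1 KD 7, 8, 32A and 36A and wild-type (WT) 16, 17 and 33A, and the standard-housed libraries were MSK1 KD 2 and WT 11 and 12. All mice were males on a C57-Bl/6J background, labelled as 12 weeks old. WT mice carried the unmodified kinase gene. MSK1 KD (kinase-dead) mice carry a point mutation in both copies of the endogenous Rps6ka5 gene that makes the N-terminal kinase domain of mitogen- and stress-activated kinase 1 inactive, so that the RNA level of Rps6ka5 does not check the genotype. The 2 genotypes were kept as separate lines rather than bred as littermates, and the mutation was first made in the C57-Bl/6n substrain. Cages hold several mice, and the cage of each library is not given. EE mice were born and raised in large cages with a running wheel, toys and a larger group, and SH mice in smaller cages with bedding and a cardboard tube. Each library was made from the poly-A RNA of the hippocampus. The question was whether EE and SH differed in gene expression once libraries with little choroid plexus RNA were left aside, since the SH group held few choroid-rich libraries and the EE group many.

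The choroid plexus is a fringe of secretory epithelium and vessels that hangs into the ventricles, next to the fimbria and the dorsal surface of the hippocampus. Its epithelial cells make cerebrospinal fluid, and they express transthyretin, a carrier of thyroid hormone, far above the level of any neuron or glial cell. In a dissected hippocampus, Ttr therefore follows how much choroid plexus remained on the tissue. MSK1 lies downstream of brain-derived neurotrophic factor (BDNF), its receptor TrkB and the ERK and p38 MAP kinases. It phosphorylates the transcription factor CREB and histone H3 in the nucleus, which couples synaptic activity to immediate early genes such as Egr1 and Arc.

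Depth in the 10 libraries ran from 13003876 to 47291601 counts on genes (median 29612685), so that 3 counts correspond to between 0.0634 and 0.2307 CPM. No 2 libraries held the same counts. Library 12 stood apart by genes of the thalamus, library 2 by ribosomal protein genes, library 36A by glucocorticoid-responsive genes and library 7 by a low level of cilium genes, and those values stand beside the results they touch. The study itself left out libraries 2 and 12 for low correlation within their groups. Without both, library 11 stands alone for SH and is taken to vary like the EE libraries, and 0 genes were called at 854 with a p under 0.05. Markers of dentate granule cells summed to 643 to 774 CPM and markers of CA1 pyramidal cells to 920 to 1101 CPM in the 10 libraries, so that markers of the labelled tissue were present. Nothing in the labels names the mice behind the libraries, and p-values below measure the spread between libraries. In RNA from whole tissue, fewer cells of a type and less RNA per cell cannot be told apart.

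Ttr chose the libraries, so its values and those of the other choroid plexus genes are a description and carry no test. Ttr stood at 685 CPM in WT SH library 11, 1671 CPM in WT SH library 12 and 2646 CPM in MSK1 KD SH library 2. Among the 7 EE libraries the lowest value was 905 (library 7), the median 3796 and the highest 5090 (library 36A). Library 11 lay below the whole EE range, and libraries 12 and 2 lay in its lower part, above EE library 7 and, for library 2, also above EE library 8. Within WT there was no overlap, since libraries 16, 17 and 33A had 4816, 3796 and 4650 CPM against 685 and 1671 CPM. Just inside the threshold lay library 11, at 684.787 CPM, and just outside it lay MSK1 KD EE library 9, at 167.864 CPM. The 12 choroid-poor libraries held 3 EE libraries (9, 31B and 35A, at 168, 41.4 and 33.4 CPM) and 9 SH libraries, at 17 to 135 CPM.

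**Figure D1:**
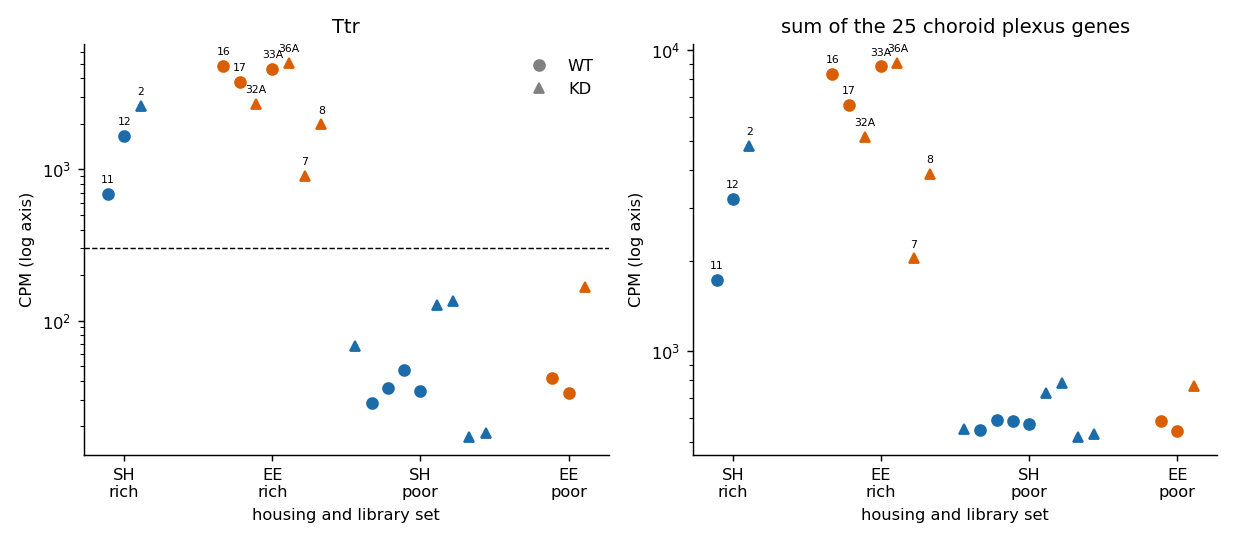
Level of Ttr (left) and summed level of the 25 choroid plexus genes (right) in each of 22 libraries, in CPM on a log axis, by housing (SH blue, EE orange), genotype (circles WT, triangles KD) and library set. The dashed line is the threshold of 300 CPM: the choroid-rich libraries run from 685 to 5090 CPM of Ttr and the others stay at or below 168 CPM.

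The other choroid plexus genes followed Ttr. The list held 25 genes, and all 25 were higher in EE than in SH among the choroid-rich libraries, with a median log2 difference of 1.01 beside 0.003 over all 18208 genes tested. Summed over the list, the SH libraries held 1728 (11), 3201 (12) and 4812 CPM (2), against 2033 to 9091 CPM in EE (median 6568). Kl, which encodes the anti-ageing co-receptor klotho, stood at 118, 48.1 and 81.2 CPM in SH libraries 2, 11 and 12 and at 54.0 to 234 CPM in EE (median 147). The water channel gene Aqp1 stood at 18.1, 5.74 and 12.2 CPM in SH and at 6.96 to 39.2 CPM in EE, and Otx2, a transcription factor of this epithelium, at 10.9, 3.22 and 8.58 CPM in SH and 3.01 to 23.9 CPM in EE. For every gene of the list the 2 groups overlapped. A threshold on Ttr thus left a gradient of choroid plexus RNA inside the chosen libraries, and it ran in the direction of housing: the median difference of the list was 0.60 without library 11, 1.77 without library 2 and 2.42 without libraries 2 and 12.

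No gene passed the test of EE against SH among the choroid-rich libraries. edgeR's quasi-likelihood test, with genotype as a block, needed an adjusted p of at most 0.05 together with a log2 fold change of at least 0.38 in either direction for a call, and it called 0 of 18208 genes (0%). The lowest adjusted p (Benjamini-Hochberg) was 0.473, shared by the leading genes. At an unadjusted p under 0.05 there were 1169 genes, of which 559 (3.07%) were higher and 610 (3.35%) lower in EE. Every EE library lay above every SH library for 92 genes (0.505%) and below every SH library for 196 genes (1.08%). The intervals were narrow for most genes: the 95% interval of the difference lay within 0.38 of zero for 55.0% of genes and within 1 of zero, on the log2 scale, for 86.9%. DESeq2's Wald test on the same libraries called 10 genes (0.0549%). The 10 were Anxa11, higher in EE, and Calb2, Ppp1r14a, Hes5, Serpinb1a, Gm10800, Sox1, Cacng5, Tnc and Klk6, lower in EE. Tnc and Klk6 are named for that call, after their values were seen.

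The genes with the lowest p in each direction, 12 higher and 12 lower, are described next, and none of them passed the test. They were picked by p in this same contrast, which favours genes whose groups do not overlap. Levels are CPM, and SH values are in the order of libraries 2, 11 and 12. Calb2 (chromosome 8, 110137502-110168210, GRCm38) encodes the calcium buffer calretinin, found in a class of interneurons and in young granule cells. It stood at 59.7, 39.8 and 43.7 CPM in SH and at 25.7 to 35.1 CPM in EE (median 33.3). All 7 EE libraries lay below all 3 SH libraries, with library 2 the highest. The log2 difference was -0.61 (SE 0.11, adjusted p = 0.473), and it was -0.31 without libraries 2 and 12.

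Hes5 (chromosome 4, 154960923-154962371), a repressor induced by Notch in neural progenitors and glia, stood at 4.67, 4.30 and 5.21 CPM in SH and at 2.19 to 3.13 CPM in EE (median 3.01). The groups did not overlap, and the log2 difference was -0.82 (SE 0.15, adjusted p = 0.473). Hes1, a related Notch target chosen after its values were seen, was between 8.80 and 9.79 CPM in SH and overlapped with EE. Its log2 difference was -0.10 (95% interval -0.33 to 0.14). Sox1 (chromosome 8, 12395295-12400126), a transcription factor of neural progenitors, stood at 23.0, 22.9 and 19.6 CPM in SH and at 15.8 to 18.9 CPM in EE (median 16.9). Its groups did not overlap either, at a log2 difference of -0.39 (SE 0.08, adjusted p = 0.473).

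Serpinb1a (chromosome 13, 32842092-32851185), an inhibitor of neutrophil-type serine proteases, stood at 11.2, 10.1 and 11.8 CPM in SH and at 6.72 to 8.63 CPM in EE (median 7.84). The lowest SH library was above the highest EE library, and the log2 difference was -0.56 (SE 0.11, adjusted p = 0.473). Cacng5 (chromosome 11, 107874605-107915055), an auxiliary subunit of AMPA receptors, stood at 19.9, 14.6 and 15.4 CPM in SH and at 9.18 to 13.1 CPM in EE (median 10.9). It differed by -0.61 (SE 0.13, adjusted p = 0.494), again with no overlap, and by -0.30 without libraries 2 and 12. Lmo1 (chromosome 7, 109138572-109175207), a LIM-only cofactor of transcription, stood at 24.2, 28.3 and 26.5 CPM in SH and at 18.3 to 21.6 CPM in EE, a log2 difference of -0.36 (SE 0.07).

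The remaining lower genes with an assigned locus, Sox10, Mag, Mbp, Ppp1r14a and Cldn5, belong to oligodendrocytes or vessels, and for all of them the groups did not overlap. Sox10 (chromosome 15, 79154908-79165240), the master regulator of the oligodendrocyte lineage, stood at 65.2, 70.7 and 73.3 CPM in SH and at 52.5 to 60.7 CPM in EE (median 54.5), a log2 difference of -0.32 (SE 0.06, adjusted p = 0.473). Mag, an adhesion molecule of the inner myelin wrap, stood at 214, 218 and 247 CPM in SH and at 170 to 209 CPM in EE, a difference of -0.29 (SE 0.07). Mbp, myelin basic protein, stood at 2851, 2511 and 3116 CPM in SH and at 1987 to 2500 CPM in EE, a difference of -0.34 (SE 0.08). In both myelin genes the lowest SH library, 2 or 11, and the highest EE library, 17 or 36A, were close. Ppp1r14a, an inhibitor of myosin phosphatase that is abundant in oligodendrocytes and smooth muscle, stood at 15.6, 16.9 and 18.5 CPM in SH and at 9.71 to 13.8 CPM in EE, a difference of -0.47 (SE 0.09). Cldn5, the tight-junction claudin of brain endothelium, stood at 37.5, 35.1 and 41.1 CPM in SH and at 28.4 to 33 CPM in EE, a difference of -0.31 (SE 0.07).

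The gene of lowest p was Gm10800, a predicted gene of chromosome 2 which lies in satellite-like repeats, so that its reads cannot be assigned to a single locus with certainty. It stood at 16 CPM in library 2, 0.869 CPM in library 11 and 606 CPM in library 12, and at 0 to 1.91 CPM in EE. The groups overlapped, and the log2 difference of -7.25 (SE 1.33) was -0.55 without libraries 2 and 12. The repeat-like genes Gm10801, Gm21738 and Gm26870, chosen after their values were seen, stood at 47.4, 58.5 and 37.4 CPM in library 12 and at or below 1.45 CPM in the other SH libraries. A choroid-poor SH library (13) also held Gm10800 at 353 CPM.

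Among the genes that were higher in EE, Anxa11 (chromosome 14, 25842156-25886804) led. It encodes annexin A11, a calcium-dependent phospholipid binder that tethers RNA granules to lysosomes. It stood at 21.2, 24.4 and 20.5 CPM in SH and at 25 to 31.5 CPM in EE (median 29.0), with no overlap, and the log2 difference was 0.39 (SE 0.08, adjusted p = 0.473). Cd74, the invariant chain of MHC class II, stood at 2.93, 2.52 and 2.54 CPM in SH and at 3.49 to 7.41 CPM in EE (median 4.11). Its groups did not overlap, and the log2 difference was 0.84 (SE 0.21, adjusted p = 0.721). With the choroid plexus score (the mean level of the choroid plexus list in a library) as a term in a fit of 22 libraries it was 0.19.

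Gdf15, a stress-induced growth factor, was near the detection limit, at 0.126, 0.0869 and 0.208 CPM in SH and 0.226 to 0.560 CPM in EE, a difference of 1.61 (SE 0.41). Vpreb1 and Gm45309 were as low and, like Gdf15, did not overlap between the groups, with SH libraries at 0.0435 to 0.208 CPM and EE libraries at 0.162 to 0.619 CPM, so that single libraries rested on a few counts. Plekha2, Acacb, Robo3, Tbc1d2, Slc16a9, Nhlh1 and Sh3rf2 overlapped between the groups, at log2 differences from 0.39 (Plekha2) to 1.68 (Sh3rf2). The value of Sh3rf2 was 0.01 in the fit of 22 libraries with the choroid plexus score and 3.90 without libraries 2 and 12. Acacb, the mitochondrial acetyl-CoA carboxylase, stood at 10.1, 7.39 and 8.83 CPM in SH and at 9.58 to 18.7 CPM in EE. Its difference of 0.66 was 0.17 in the fit of 22 libraries with the choroid plexus score, which also adds the choroid-poor libraries. Robo3, an axon guidance receptor, stood at 25.2, 38.6 and 32.2 CPM in SH and at 33.5 to 73.5 CPM in EE, a difference of 0.59 (SE 0.16).

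**Figure D2:**
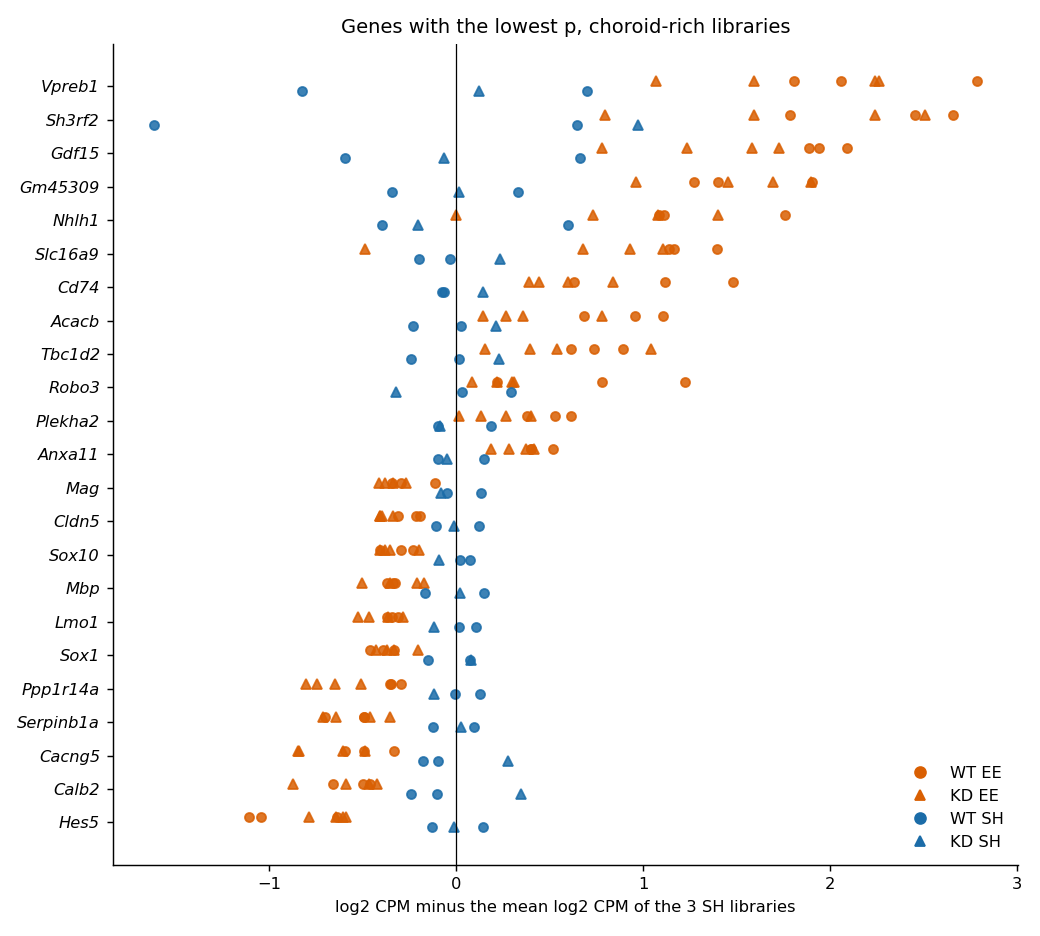
The 23 genes of lowest p other than Gm10800 in the 10 choroid-rich libraries, as log2 CPM minus the mean log2 CPM of the 3 SH libraries (blue SH, orange EE; circles WT, triangles KD; each point 1 library). All EE points lie below all SH points for the 11 lower genes and above them for 5 of the 12 higher genes, and no gene passed the test. Over all genes these shares were 1.08% and 0.505%, and the genes shown were picked by p in this same contrast.

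Lists of marker and pathway genes are given by how many of their tested genes were higher or lower in EE and by their median log2 difference. Over all genes tested, 9252 of 18208 were higher and the median was 0.003. Counts at an unadjusted p under 0.05 are to be read beside the 3.07% of all genes that were higher and the 3.35% that were lower at that p. No list contained a called gene. For single libraries, the score of a list is its genes' log2 CPM averaged, minus the same average over the 10 libraries.

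The list of mature oligodendrocytes and myelin was lower in EE throughout: 0 of 12 genes were higher, 9 had a p under 0.05, and the median was -0.27. Mog, a surface protein of the outer myelin sheath, stood at 63.8, 61.7 and 72.1 CPM in SH and at 49.9 to 61.0 CPM in EE, with no overlap, at a difference of -0.28 (SE 0.07). Ugt8a, the enzyme that makes galactosylceramide, differed by -0.42 (SE 0.13), Aspa by -0.39 (SE 0.12), and Mobp, by contrast, by -0.09 (95% interval -0.30 to 0.12). By library, the myelin score was 0.34 in library 12, 0.21 in library 2 and 0.03 in library 11, against -0.23 to 0.06 in EE. The scores overlapped through libraries 11 and 7. The median was -0.20 without library 12 and -0.11 without libraries 2 and 12. Of 10 genes of oligodendrocyte precursors, 2 were higher and 8 lower, 4 of the lower ones at a p under 0.05. Those 4 included Enpp6, which marks newly formed oligodendrocytes (-0.63, SE 0.16), and Olig2 (-0.40, SE 0.12).

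Markers of the thalamus, which borders the choroid plexus and the hippocampus, were lower in EE for 14 of 14 genes, 9 of them at a p under 0.05, with a median of -0.74. This followed library 12. Its thalamus score was 1.60, and the other 9 libraries lay between -0.29 and -0.05. Tcf7l2, a transcription factor of thalamic neurons, stood at 4.57, 5.26 and 36.3 CPM in SH libraries 2, 11 and 12 and at 4.32 to 5.46 CPM in EE, and the contractile protein gene Tnnt1 at 1.34, 0.9997 and 16.7 CPM in SH and 0.670 to 1.84 CPM in EE. Without library 12 the median of the list was -0.05. Lhx9 differed from the others in that its groups did not overlap, at 15.3, 18.0 and 17.8 CPM in SH and 11.2 to 14.9 CPM in EE (log2 difference -0.35, SE 0.10).

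Of 14 interneuron genes, 3 were higher and 11 lower, 4 of the lower ones at a p under 0.05, with a median of -0.13. The interneuron score was the one list score whose groups did not overlap, at 0.03 to 0.15 in SH and -0.09 to 0.02 in EE. SH library 12 (0.0345) and EE library 36A (0.0179) were close. The list includes Calb2, already named for its low p, and the score without Calb2 was not computed. Over all genes, every EE library lay below every SH library for 1.08%. Besides Calb2, the lower genes at a p under 0.05 were Gad2, Cck and Dlx6. Gad2, a GABA-synthesising enzyme, stood at 161, 167 and 169 CPM in SH and at 129 to 165 CPM in EE (difference -0.15). The peptide gene Cck differed by -0.16 and the transcription factor gene Dlx6 by -0.44. Gad1, Sst and Pvalb had differences of -0.05, -0.05 and -0.18. Of 15 genes of immature neurons and neurogenesis, 5 were higher and 10 lower, 4 of the lower ones at a p under 0.05 (Calb2, Sox1, Sox2 and Eomes). The median was -0.17, and it was -0.04 without library 2. Eomes, a marker of intermediate progenitors, stood at 3.83, 1.74 and 0.375 CPM in SH and at 0.129 to 1.84 CPM in EE, a wide spread within both groups. Its difference of -1.22 was 0.24 without library 2.

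Of 12 microglial genes, 0 were higher and 12 lower, 3 of them (Gpr34, P2ry12 and Trem2) at a p under 0.05. The median was -0.11, and it was 0.01 without libraries 2 and 12. Astrocyte genes were higher for 4 of 12 (median -0.10), endothelial genes for 1 of 12 (median -0.03), mural cell genes for 4 of 8 (median 0.00) and pan-neuronal genes for 4 of 10 (median -0.01). Among neurons of the hippocampal fields, dentate granule cell genes were higher for 10 of 12 (median 0.08), CA1 genes for 5 of 9 (median 0.07, or -0.04 without library 2) and CA2 and CA3 genes for 4 of 10 (median -0.10).

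Genes of tissue that neighbours the choroid plexus were also mostly higher. Meningeal fibroblast genes were higher in EE for 14 of 14, 4 of them at a p under 0.05, with a median of 0.43 that was 0.14 with the choroid plexus score as a covariate, 0.20 without library 11 and 0.88 without library 2. Igf2, a growth factor made by meninges and choroid plexus, stood at 126, 63.2 and 125 CPM in SH and at 82.4 to 226 CPM in EE. Summed over the list, the range was 223 to 368 CPM in SH and 277 to 560 CPM in EE. Ependymal genes were higher for 7 of 12, with a median of 0.08 whose sign was not stable: it was -0.30 with the covariate, -0.05 without library 11, -0.13 without library 12 and 0.58 without library 2. Genes of the motile cilium axoneme were higher for 43 of 60, 7 of them at a p under 0.05, with a median of 0.12 that was -0.08 with the covariate, 0.05 without library 11 or library 12 and 0.38 without library 2. Library 7 had the lowest axoneme score, at -0.51, against -0.05 to 0.27 in the other EE libraries and 0.20, -0.23 and -0.17 in SH libraries 2, 11 and 12. Collagens and lysyl oxidases were higher for 37 of 48, 10 of them at a p under 0.05, with a median of 0.16 that was 0.02 with the covariate and 0.24 without library 2. Haemoglobin genes and Alas2 were higher for 5 of 5, with a median of 0.22 that was 0.01 without library 12, 0.11 without library 11 and 0.96 without library 2. Interferon and MHC genes, led by Cd74, were higher for 17 of 20, 5 of them at a p under 0.05, with a median of 0.20 that was 0.03 with the covariate and 0.43 without library 2. Beyond that covariate, the part of the choroid plexus gradient in these differences was not tested.

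Cytosolic ribosomal protein genes were lower in EE for all but 1 of 84 genes, 55 of them at a p under 0.05, with a median of -0.19. Library 2 had the highest score, at 0.30, against -0.05 and 0.08 in libraries 11 and 12 and -0.15 to 0.02 in EE. Without library 2 the median was -0.08, and without libraries 2 and 12 it was -0.03. Genes of nuclear oxidative phosphorylation were higher for 6 of 79, with a median of -0.10 that was -0.02 without library 2. Replication-dependent histone genes, whose transcripts largely lack a poly-A tail, were higher for 14 of 16, 5 of them at a p under 0.05, with a median of 0.36. By library, the histone score ran from -0.464 (library 7) to 0.596 (library 17) in EE and from -0.259 to -0.146 in SH, so that the groups overlapped. Sterol synthesis genes were higher for 16 of 16, 3 of them at a p under 0.05, with a median of 0.16. Their score ran from -0.113 to 0.240 in EE, with libraries 8 and 36A inside the SH range of -0.131 to -0.098. In the choroid-poor libraries 7 of 16 were higher, with a median of -0.035.

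Signalling, synaptic and clock lists had medians near that of all genes. Genes of AMPA and NMDA receptors were higher for 14 of 27 (median 0.00), with 2 lower at a p under 0.05, and of these Grin2d, an NMDA receptor subunit of interneurons, was lower at -0.35 (SE 0.10) with no overlap. Circadian clock genes were higher for 5 of 17 (median -0.04, or -0.12 without library 2), with 1 higher and 5 lower at a p under 0.05, among them the activator Arntl at 0.22 (SE 0.07) and the outputs Dbp and Tef at -0.29 and -0.18. Wnt pathway genes were higher for 12 of 30 (median -0.06), with 2 higher and 5 lower at that p. Neurotrophic factors and receptors were higher for 13 of 18 (median 0.04), 4 of them at that p: Bdnf, Fgf2, Ngfr and Vgf. Presynaptic release genes were higher for 9 of 22 (median -0.02), with 1 in each direction at that p, and potassium channels for 35 of 69 (median 0.00), with 4 higher and 3 lower.

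Glucocorticoid-responsive genes were higher for 18 of 19 and 2 had a p under 0.05, with a median of 0.23. The score was 0.72 in library 36A and -0.12 to 0.13 in the other 6 EE libraries, against -0.26 to -0.07 in SH. Without library 36A the median was 0.15, and without the lettered libraries 32A, 33A and 36A, it was 0.07. The labels do not explain the letter, and as every lettered library is EE, it cannot be told apart from housing. Cdkn1a, the cell-cycle inhibitor p21, stood at 6.49, 5.95 and 5.38 CPM in SH and at 7.01 to 20.02 CPM in EE. Heat shock and cold response genes were higher for 10 of 12, with a median of 0.16 that was 0.09 without library 36A. Every EE library lay above every SH library for 2 of the 12, both chaperone genes, beside 0.505% of all genes. Hsph1 stood at 275, 295 and 287 CPM in SH and at 311 to 438 CPM in EE (difference 0.27, SE 0.09), and Bag3 at 11.1, 11.8 and 11.2 CPM in SH and at 12.3 to 14.6 CPM in EE (difference 0.26, SE 0.08).

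**Figure D3:**
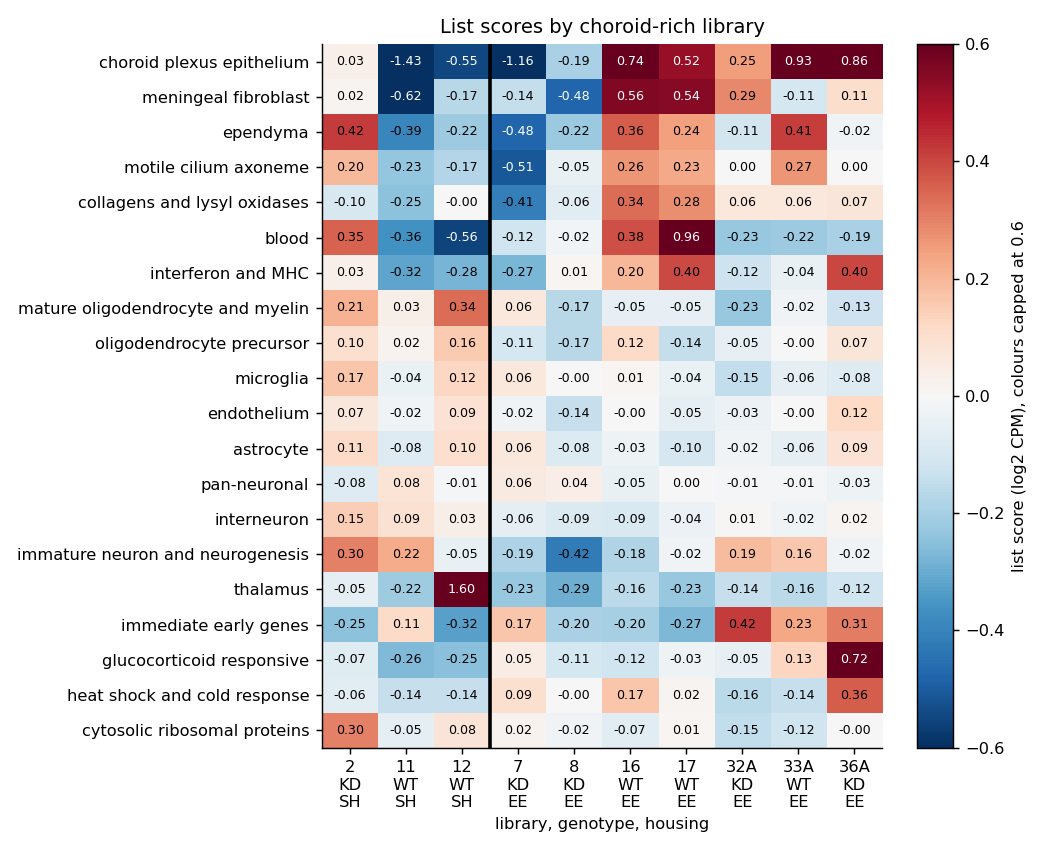
List scores (mean log2 CPM minus the mean over the 10 libraries) of 20 gene lists in each choroid-rich library, SH left of the line and EE right of it, with colours capped at 0.6. Library 12 stands out for thalamus (1.60), library 2 for ribosomal proteins (0.30) and library 36A for glucocorticoid-responsive genes (0.72), and the choroid plexus row runs from -1.43 to 0.93.

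In the pathway in which MSK1 acts, differences between EE and SH centred near zero, with wide intervals for Egr1 and Arc. Of 12 genes from Bdnf to Arc, 6 were higher and 6 lower, 1 had a p under 0.05, and the median was 0.004. Bdnf, the ligand, stood at 35.3, 38.9 and 31.9 CPM in SH and at 34.6 to 53.9 CPM in EE (median 44.2). Libraries 8 and 16 lay within the SH range and the other 5 EE libraries above it. The log2 difference was 0.27 (SE 0.12, 95% interval 0.02 to 0.52, adjusted p = 0.749). Ntrk2, the receptor TrkB, stood at 682, 668 and 687 CPM in SH and at 648 to 751 CPM in EE, a difference of 0.02 (95% interval -0.10 to 0.14).

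Among the kinases, Map2k1, Map2k2 and Mapk14 had differences of -0.06, -0.01 and 0.02. Mapk3, which encodes ERK1, was somewhat lower, at 164, 165 and 169 CPM in SH and 131 to 169 CPM in EE (difference -0.15, 95% interval -0.30 to 0.01). Rps6ka5, the gene for MSK1 itself, stood at 21.9, 22.4 and 22.3 CPM in SH libraries 2, 11 and 12. In EE it stood at 20.9, 21.9, 24.0 and 21.7 CPM in MSK1 KD libraries 7, 8, 32A and 36A and at 21.5, 20.1 and 21.6 CPM in WT libraries 16, 17 and 33A. Over all choroid-rich libraries, neither genotype nor housing separated these values, and the housing difference was -0.05 (95% interval -0.20 to 0.11). Within WT, every EE library lay below both SH libraries (21.5, 20.1 and 21.6 against 22.4 and 22.3 CPM). Within MSK1 KD, the EE libraries lay on both sides of SH library 2. Its paralogue Rps6ka4 (MSK2) differed by -0.10 (95% interval -0.28 to 0.08), and the target Creb1 by 0.07 (95% interval -0.11 to 0.25).

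The downstream genes were the most variable. Egr1, a zinc-finger immediate early gene, stood at 139, 186 and 127 CPM in SH and at 111 to 257 CPM in EE (median 170), and Arc, which regulates AMPA receptor endocytosis, at 127, 158 and 103 CPM in SH and 105 to 295 CPM in EE (median 178). In both genes the WT EE libraries 16 and 17 lay inside or below the SH range and the MSK1 KD library 32A was the highest. The differences were 0.12 (95% interval -0.28 to 0.53) for Egr1 and 0.31 (95% interval -0.19 to 0.82) for Arc, and both turned negative without libraries 2 and 12, at -0.45 and -0.25.

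Of 23 immediate early genes, 20 were higher in EE and 3 (Nr4a1, Nr4a2 and Bdnf) had a p under 0.05, with a median of 0.17. The score followed single libraries more than housing. In SH it was -0.25, 0.11 and -0.32 in libraries 2, 11 and 12, and in EE it was 0.42, 0.31, 0.23 and 0.17 in libraries 32A, 36A, 33A and 7 and -0.20, -0.20 and -0.27 in libraries 8, 16 and 17. The median of the list was 0.04 without the lettered libraries, 0.03 without library 2 and -0.16 without libraries 2 and 12, but 0.31 without library 11. Nr4a1, an orphan nuclear receptor induced by activity, stood at 56.8, 79.4 and 51.0 CPM in SH and at 60.4 to 122 CPM in EE, a difference of 0.42 (95% interval 0.02 to 0.83). Nr4a2 differed by 0.31 (95% interval 0.06 to 0.55), Fosb by 0.51 (95% interval -0.04 to 1.06), Sik1 by 0.54 (95% interval -0.11 to 1.20) and Egr2 by 0.57 (95% interval -0.50 to 1.64). Fos stood at 16.7, 23.3 and 15.8 CPM in SH and 14.3 to 38.9 CPM in EE (difference 0.28, 95% interval -0.32 to 0.89). Npas4, a neuronal factor that answers to calcium influx, was at -0.07 (95% interval -0.41 to 0.27).

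**Figure D4:**
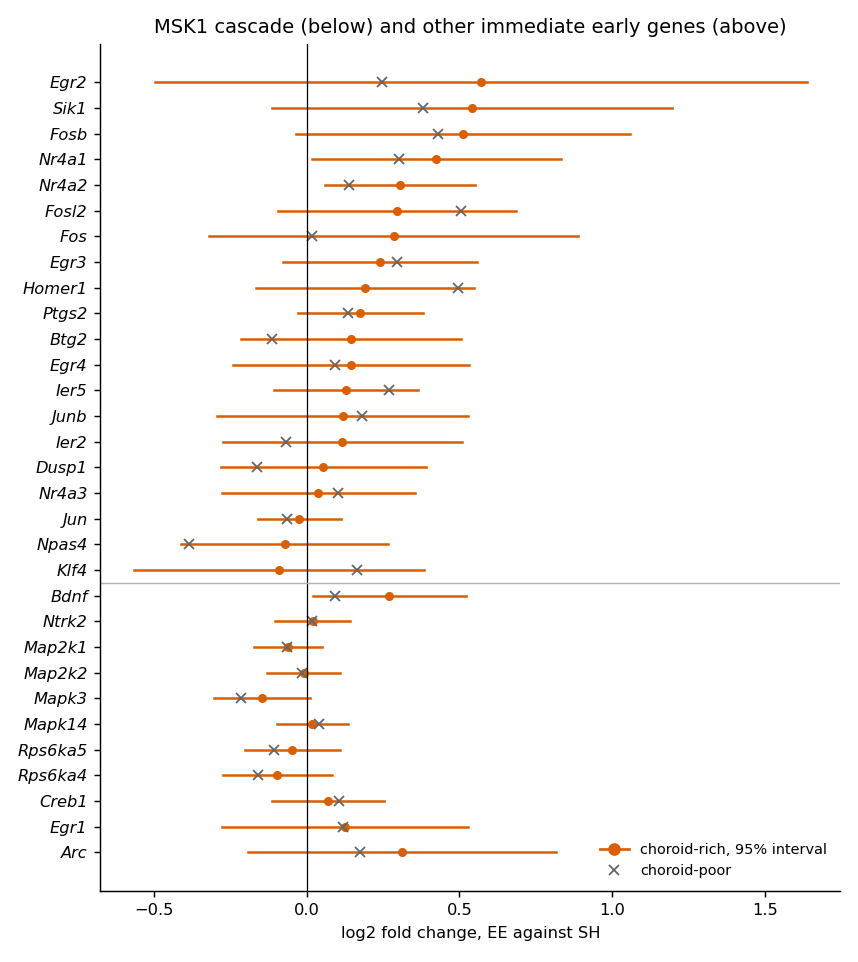
Log2 fold change of EE against SH for 11 genes of the MSK1 cascade (below the line) and the 20 other immediate early genes (above it): orange points with 95% intervals for the choroid-rich libraries, grey crosses for the choroid-poor ones. The intervals of the cascade kinases shown lie within 0.38 of zero, and those of Egr2 (-0.50 to 1.64), Sik1 (-0.11 to 1.20) and Fos (-0.32 to 0.89) are the widest.

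The choroid-poor libraries allowed the same contrast in samples that the choroid-rich set did not use, 3 EE against 9 SH. The study left out all 3 of these EE libraries for low correlation within their groups, and library 9 had the lowest depth, at 8911999 counts on genes. In the choroid-poor set, 1 of 18401 genes was called (0.00543%). That gene, Manf, encodes a trophic factor of the endoplasmic reticulum stress response. It stood at 35.5, 32.9 and 39.6 CPM in EE libraries 9, 31B and 35A and at 22.7 to 27.5 CPM in SH, and rose by 0.53 (SE 0.08, adjusted p = 0.0345 by edgeR). The call was lost, with 0 genes called, when library 1, 3, 4, 9, 10, 13, 14, 15 or 35A was left out. In the choroid-rich libraries Manf stood at 32.4, 22.3 and 26.8 CPM in SH and at 22.2 to 49.3 CPM in EE, with a difference of 0.18 (95% interval -0.24 to 0.60). A test of the difference between the 2 sets of libraries called 0 of 19053 genes (0%). At an unadjusted p under 0.05 there were 944, and the lowest adjusted p was 0.791 (edgeR).

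The direction of a difference was often shared by the 2 sets, which have no library in common. Of 17936 genes tested in both, 10948 (61.0%) had the same sign. Of the genes at a p under 0.05 in the choroid-rich libraries, 845 of 1132 (74.6%) had the same sign in the choroid-poor ones. The share was 503 of 607 (82.9%) for genes lower in EE and 342 of 525 (65.1%) for genes higher in EE. Serpinb1a differed by -0.65 in the choroid-poor libraries, with EE at 6.03 to 7.67 CPM and SH at 9.19 to 16.3 CPM and no overlap, beside -0.56 in the choroid-rich ones. Cacng5 (-0.56 beside -0.61), Sox1 (-0.36 beside -0.39), Robo3 (0.49 beside 0.59) and Hsph1 (0.38 beside 0.27) were also similar in size. Calb2 was at -0.21 beside -0.61, with overlap in the choroid-poor set.

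Other genes had no such counterpart. Tnc, an extracellular matrix glycoprotein of progenitors and astrocytes, differed by -0.71 in the choroid-rich libraries (10.9, 11.6 and 17.9 CPM in SH, 6.28 to 9.82 CPM in EE) and by 0.16 in the choroid-poor ones. Cd74 differed by 0.84 and -0.14, Acacb by 0.66 and -0.01, and Klk6 by -1.66 and 0.12. None of these differences between sets passed the test. By list, myelin genes were lower in both sets (medians -0.27 and -0.13, with 1 of 12 higher in the choroid-poor set), as were ribosomal protein genes (-0.19 and -0.12, with 9 of 84 higher) and microglial genes (-0.11 and -0.19, with 2 of 12 higher). Axoneme genes were at 0.12 and -0.28, with 14 of 61 higher in the choroid-poor set, and ependymal genes at 0.08 and -0.61. The choroid plexus list was at 1.01 in the choroid-rich and -0.02 in the choroid-poor set.

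**Figure D5:**
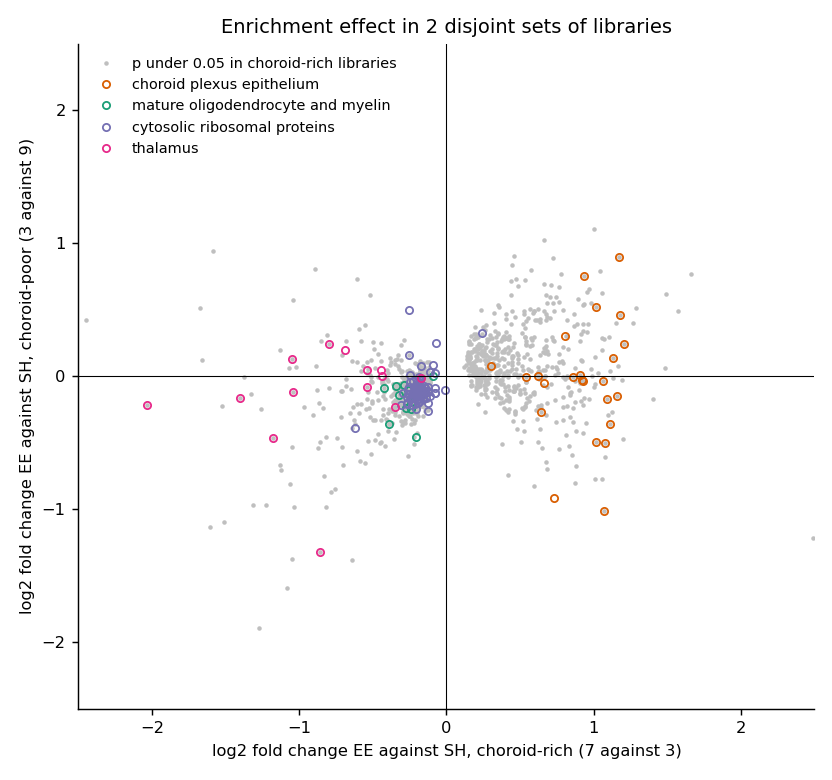
Log2 fold change of EE against SH in the choroid-rich libraries (x axis, 7 against 3) and in the choroid-poor libraries (y axis, 3 against 9), for 1132 genes at a p under 0.05 in the former (grey) and for all tested genes of 4 lists (open circles), and 1 gene lies outside the axes. Choroid plexus genes spread to the right at both signs of y, thalamus genes to the left near 0, and myelin and ribosomal protein genes lie mostly in the lower left.

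The genotypes could be compared only with 1 MSK1 KD SH library, number 2, which is taken to vary like the other groups. The difference between the enrichment effects, WT minus MSK1 KD, passed the test for 1 of 19659 genes (0.00509%). Amd2 (chromosome 10, 35708675-35711892), a near-identical copy of the S-adenosylmethionine decarboxylase gene Amd1, differed by 4.15 (SE 0.51, adjusted p = 0.0260 by edgeR). It stood at 3.73 CPM in MSK1 KD SH library 2 and at 0, 0.129, 0.273 and 0.201 CPM in the MSK1 KD EE libraries 7, 8, 32A and 36A, which is 0, 4, 9 and 6 counts. In WT it stood at 5.04 and 4.92 CPM in SH and at 3.57, 3.52 and 5.48 CPM in EE. Within the choroid-rich set, the 4 MSK1 KD EE libraries were low and the other 6 were not. Outside the choroid-rich set, MSK1 KD EE library 9 held 6.78 CPM and WT SH library 13 held 0.223 CPM, so that 1 enriched MSK1 KD library was not low and 1 standard-housed WT library was. The call was lost, with 0 genes called, when library 8, 12, 16 or 17 was left out. Reads of Amd2 can be split with Amd1, which stood at 78.5 to 100 CPM in the 10 libraries.

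The genes of next lowest p in the WT minus MSK1 KD difference did not pass the test. They were Prelp (0.97), Crocc2 (1.69) and Cdhr3 (1.60), which belongs to the ependymal list. Wfikkn2 (1.77) ranked among them, but it belongs to the choroid plexus list. Since Ttr chose the libraries, its value is a description only. In the pooled fit of EE against SH, Crocc2 differed by -0.11 and Cdhr3 by -0.27. Both values turned positive without library 2, the only MSK1 KD SH library. Prelp differed by 0.39 in that fit and by -0.05 in 22 libraries with the choroid plexus score. Egr1 had a difference of -0.84 (SE 0.31, adjusted p = 0.861) and Arc of -0.72 (SE 0.43, adjusted p = 0.925).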

How the data were processed

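Raw gene counts from 24 hippocampal libraries were used. Per the labels and the study's methods, the authors deposited counts made from paired-end reads by Skewer trimming, STAR 2.5 alignment to GRCm38 and HTSeq counting of uniquely placed reads without strand, so that reads of overlapping antisense genes cannot be told apart. A deposited table of the whole series lacked libraries 2 and 12 and was not used. HTSeq's summary lines, which name no gene, were dropped. Libraries 33B and 34B, which failed the study's quality control, were left out. The study also left out libraries 2, 9, 12, 31B and 35A for low correlation within their groups. They stay here. The libraries, members and gene lists were chosen with earlier results of these data known.

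edgeR 4.0.16 (R 4.3.3; filterByExpr, TMM, quasi-likelihood test, Benjamini-Hochberg adjustment over all genes tested) was fitted with genotype and housing, tested on simulated data first. The study's thresholds for a call were kept. DESeq2 1.42.0, other filters, scalings, terms, thresholds on Ttr and leaving out each library were alternatives. CPM of named genes are TMM-scaled over 22 libraries, and Ttr for the threshold is unscaled. Named genes were the 12 of lowest p in each direction outside the choroid plexus list (had genes been called, those with no overlap would have come first), the MSK1 cascade and immediate early genes (a few list genes are not reported here by name), and the leading genes of each difference test. Positions are from GENCODE M21 (GRCm38), which held 47240 of 49568 symbols. Intervals cover the fit, and floors of 3 counts cover counting error only.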

Additional observations from a re-analysis of the deposited data

Results flagged for a closer look

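Among 97 groups of 7 EE values tested for 1 value far from the rest (Dixon's criterion), 6 held such a value, where chance alone gives about 1 in 20. Klf4 was at 7.70 CPM in library 36A, against 3.26 to 5.12 CPM in the other EE libraries. Homer1 was at 178.7 CPM in library 36A, against 75.7 to 111 CPM. The glucocorticoid-responsive score was 0.7158 and the circadian clock score 0.1194 in the same library, against -0.12 to 0.13 and -0.071 to 0.00039. Ptgs2 was at 20.23 CPM in library 8, against 24.9 to 28.4 CPM. The score of the motile cilium axoneme was -0.5065 in library 7, against -0.046 to 0.27.

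The enrichment effects of the 2 genotypes differed for Amd2 by 4.145 on the log2 scale, by the test of the difference itself. Library 33B, which entered no comparison, held Ttr at 900.7 CPM, above the 17 to 135 CPM of the choroid-poor SH libraries, and would have passed the threshold on Ttr.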

How the results depend on the processing

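Of the 25 alternatives tried for EE against SH in the choroid-rich libraries, 17 again called 0 genes. DESeq2 called 10, no filter on low counts 278, WT libraries alone 117 (where all EE libraries held more Ttr than all SH libraries), the means of the 4 groups 1 (Amd2), a Ttr threshold of 1000 CPM 4, the choroid plexus score as a covariate 3 (Calb2, Cacng5 and Amd2) and 22 libraries with that score 7. Of the 117 genes in WT libraries alone, 23 belong to the choroid plexus list of 25, Ttr among them, and are a description only. Leaving out 1 library gave 0 to 4, the 4 being the repeat-like genes Gm10800, Gm10801, Gm21738 and Gm26870 without library 11. In the choroid-poor libraries DESeq2 called 110 and no filter 300 genes, and leaving out 1 library gave 0 to 6 (0 without library 1, 3, 4, 9, 10, 13, 14, 15 or 35A, 5 without 5, and 6 without 6 or 31B). For choroid-rich minus choroid-poor, no filter gave 186 and leaving out 1 library 0 to 3 (3 without library 2). For WT minus KD, DESeq2 called 17, no filter 215, and a minimum of 10 counts in every library 0, which removes Amd2. Leaving out 1 library gave 0 to 12 (0 without library 8, 12, 16 or 17, 2 without 33A or 36A, and 12 without 11). The fit without library 2 was not run, since MSK1 KD SH would hold no library. The cause of these shifts was not tested, other than the number of genes or libraries each alternative leaves.

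No paired analysis was possible because the library codes are shared by no groups. Over the 24 genes of lowest p and the named cascade and immediate early genes, the sign changed in 62 of 1306 values, all of them of cascade and immediate early genes. The 24 genes were picked by p in these same libraries, which favours a stable sign. Other genes named from lists also changed sign, among them Tnnt1 (0.28 without libraries 2 and 12) and Eomes (0.24 without library 2). Without the lettered libraries the log2 difference was -0.034 for Ntrk2, 0.026 for Map2k2, -0.0002651 for Creb1, -0.049 for Egr1, -0.091 for Fos, -0.17 for Junb, -0.29 for Egr2, -0.14 for Egr4, 0.0054 for Npas4, -0.10 for Nr4a3 and -0.13 for Dusp1. Without libraries 2 and 12 the log2 difference was 0.004479 for Map2k2, -0.084 for Mapk14, -0.036 for Creb1, -0.45 for Egr1, -0.25 for Arc, -0.23 for Fos, -0.15 for Fosl2, -0.29 for Junb, -0.37 for Egr2, -0.17 for Egr3, -0.24 for Egr4, -0.055 for Nr4a1, -0.087 for Nr4a2, -0.38 for Nr4a3, -0.28 for Ier2, -0.11 for Ier5, -0.028 for Btg2, -0.16 for Dusp1 and -0.11 for Homer1. In WT libraries alone the log2 difference was -0.023 for Mapk14, -0.20 for Egr1, -0.079 for Junb, -0.019 for Egr4, -0.20 for Nr4a3, -0.13 for Ier2 and -0.004034 for Dusp1. At a Ttr threshold of 100 CPM the log2 difference was -0.002843 for Ntrk2 and 0.029 for Map2k2. At a Ttr threshold of 1000 CPM the log2 difference was 0.0088 for Jun and 0.12 for Klf4. With the choroid plexus score as covariate the log2 difference was -0.032 for Ntrk2, 0.040 for Jun and 0.074 for Npas4. In 22 libraries with that score the log2 difference was -0.0058 for Dusp1 and 0.088 for Klf4. Leaving out 1 library gave log2 differences of -0.046 to 0.15 for Dusp1, -0.19 to 0.38 for Egr1, -0.014 to 0.31 for Egr4, -0.13 to 0.27 for Ier2, -0.10 to 0.021 for Jun, -0.073 to 0.29 for Junb, -0.21 to 0.079 for Klf4, -0.028 to 0.014 for Map2k2, -0.017 to 0.054 for Mapk14, -0.20 to 0.21 for Nr4a3 and -0.0076 to 0.038 for Ntrk2.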
